A study of Homo sapiens with 6 samples.

Results

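The nuclear pore and nuclear transport genes measured here were 36 genes: the nucleoporins that build the pore, the import and export receptors KPNA2, KPNB1, IPO5 and XPO1, and RAN with its regulators RCC1 and RANGAP1. They were taken by name, and a probe counted for a gene when its transcript accession belonged to that gene. The arrays held 50 probes for the 36 genes. Of these, 46 probes were bright enough to be tested, at least 1 for each of the 36 genes, among 11974 genes tested in all. The cells were MDA-MB-231, a human breast cancer line grown in culture, and they were transfected with an hsa-miR-205-5p precursor, with an hsa-miR-214-3p precursor or with a scrambled control. All groups received a transfected RNA, 72 h passed before RNA was collected, and each group had 2 Agilent arrays. The labels do not say whether the replicates were separate cultures, so the p-values measure only the spread between these arrays, which may be technical. A level below is the log2 of the processed signal minus the 75th percentile of that array, and a log2 fold change is a difference between the means of 2 groups. A gene was called lower or higher when limma, fitted to all 6 arrays, gave a Benjamini-Hochberg adjusted p under 0.05 over all probes tested and the change was at least 2-fold. Each gene stands for its brightest tested probe unless a second probe is named. Levels are compared between arrays for the same probe and never between probes of different genes.

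The nuclear pore complex is the channel through which proteins and RNA cross the nuclear envelope. Outer rings built from the Y complex and an inner ring form the scaffold, membrane proteins anchor it, nucleoporins with phenylalanine-glycine repeats fill the channel, and filaments extend to the cytoplasm and into a nuclear basket. Importins and exportins carry their cargo through this channel, and the small GTPase RAN, kept in its GTP form in the nucleus by RCC1 and converted to its GDP form in the cytoplasm with RANGAP1, sets the direction of transport. A microRNA lowers transcripts that pair with its seed, the bases 2 to 8 from its 5′ end, while many other transcripts can move indirectly.

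The mature sequences of the 2 transfected microRNAs, from RefSeq, are given here because they are what distinguished the groups. The capitals mark the seed. hsa-miR-205-5p is encoded at chr1:209432166-209432187 on the plus strand and hsa-miR-214-3p at chr1:172138816-172138837 on the minus strand of GRCh38.p14.
hsa-miR-205-5p: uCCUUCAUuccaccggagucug
hsa-miR-214-3p: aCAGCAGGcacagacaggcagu
Both are 22 bases long, and their seeds differ. No 3′ UTR sequence was used here, so which members carry sites for either seed was not examined.

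Over the arrays, 35.4% to 42.2% of the 58717 non-control spots were well above background and none was saturated. The replicates of hsa-miR-205-5p correlated at 0.985, those of hsa-miR-214-3p at 0.992 and those of the scrambled control at 0.971. Scrambled replicate 2 was nearer to the hsa-miR-214-3p arrays (0.977 and 0.974) than to scrambled replicate 1, and farther from the hsa-miR-205-5p arrays (0.937 and 0.932) than scrambled replicate 1 was (0.965 and 0.959). Counts are therefore given below with and without each array. Among markers of the line, 6 of 6 genes (AXL, CAV1, CD44, LGALS1, S100A4 and VIM) were well above background on all arrays. ESR1 and PGR, which the line lacks, were well above background on none. Of the other 4 luminal or epithelial genes, CDH1, EPCAM, GATA3 and KRT19 were all well above background on all arrays, and the summed linear level of the 6-gene list was 1499 to 1735 with hsa-miR-205-5p, 671 to 728 with hsa-miR-214-3p and 616 to 820 in the control. In that list KRT19 read 9.26 to 10.75 on the log2 scale, so the sum was nearly all KRT19 signal. Over the 6 arrays CDH1 read −1.47 to 0.87, EPCAM 0.35 to 3.21 and GATA3 0.10 to 0.69. The summed level of the 6 markers of the line was 1672 to 1704, 2031 to 2140 and 1787 to 1977 in the same order. Of 8 markers of immune, endothelial, stromal and muscle cells, CD14 and CD68 were well above background on all arrays and CD3E, COL1A1 and COL3A1 on none, with summed levels of 9.97 to 11.7, 14.1 to 14.5 and 11.5 to 14.2 in the same order. The part of these lists in the results below was not tested.

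With the hsa-miR-205-5p precursor, 5 of the 36 pore genes were called, in both directions. NUP214, AAAS and NUP93 transcripts fell against the scrambled control, by 3.45-, 2.62- and 2.52-fold. Those for NUP35 and NDC1 were called higher, by 2.82- and 2.72-fold. The 5 called members were 13.9% of the 36, and over all genes tested the same rule called 12.8% (lower 7.98%, higher 4.78%), so the share among the pore genes lay close to that of the genes as a whole. The median log2 fold change of the members was 0.04 and that of all genes 0.08. Members changed by a median size of 0.34 and all genes by 0.47 on the log2 scale. Without the fold limit 6 members passed, 16.7% against 21.1% of all genes. The 95% confidence interval of the change lay inside 2-fold in both directions for 20 of 36 members (55.6%), against 45.4% of all genes.

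**Figure D1:**
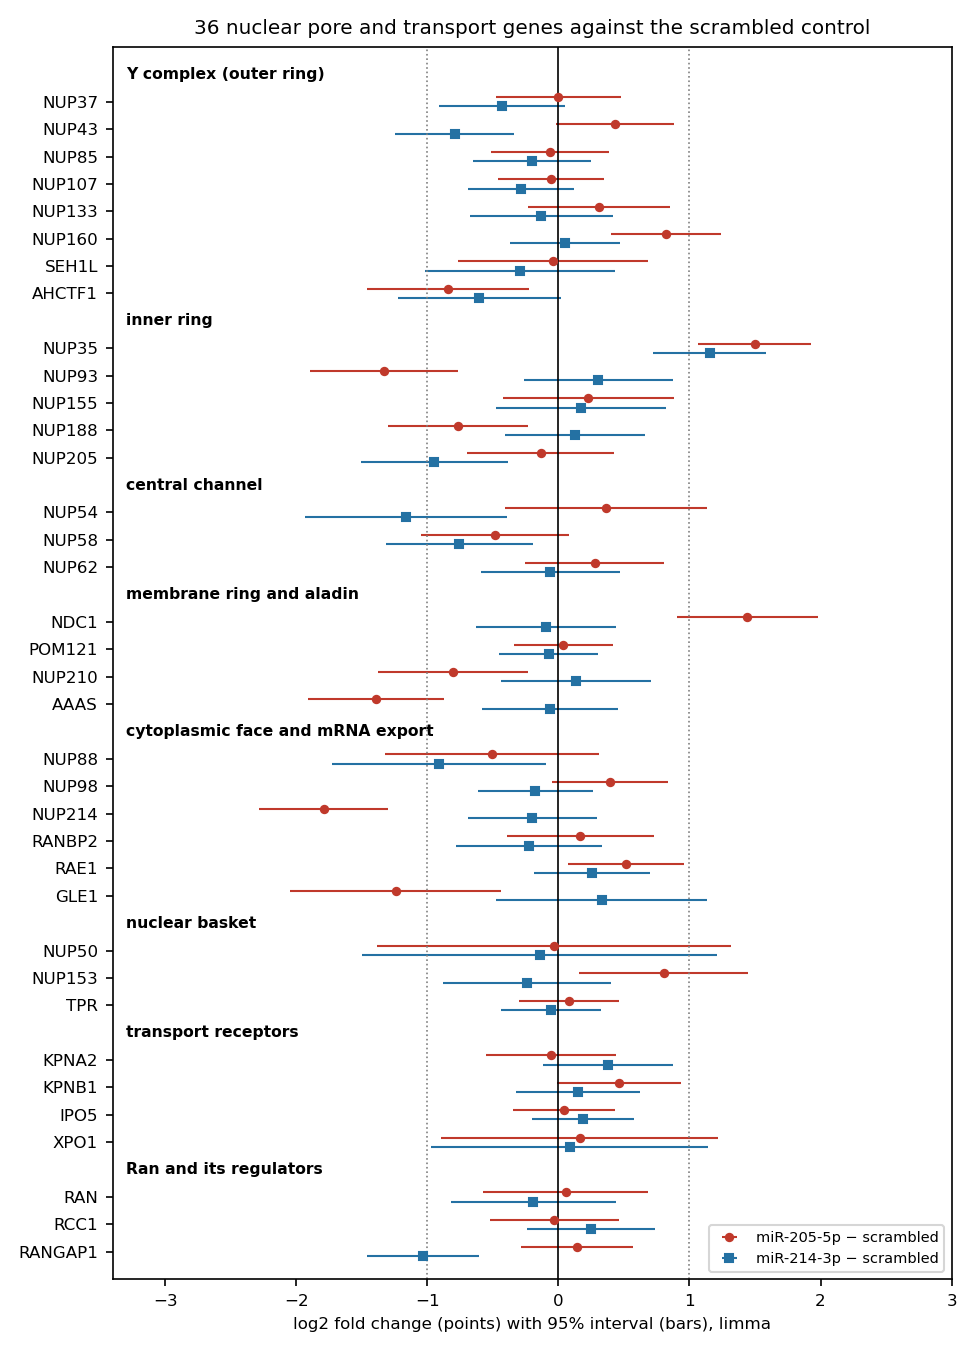
Log2 fold change (horizontal axis) of the 36 members with 95% confidence intervals from limma, grouped by their place in the pore, for hsa-miR-205-5p (circles) and hsa-miR-214-3p (squares) against the scrambled control; dotted lines mark 2-fold. The hsa-miR-205-5p points reach from −1.79 for NUP214 to 1.50 for NUP35, while those of the 4 transport receptors lie between −0.05 and 0.46.

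NUP214 is a repeat nucleoporin of the cytoplasmic filaments that binds export complexes. Its level was 1.67 and 1.38 on the hsa-miR-205-5p arrays, 3.11 and 3.11 on the hsa-miR-214-3p arrays and 3.15 and 3.47 on the scrambled arrays. Both hsa-miR-205-5p arrays lay below the 4 others by a wide gap. The log2 fold change against the control was −1.79 (SE 0.20, 95% interval −2.28 to −1.30, limma adjusted p = 0.00898).

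AAAS encodes aladin, a scaffold-associated nucleoporin that NDC1 holds at the pore membrane. Its level was 1.05 and 1.25 with hsa-miR-205-5p, 2.38 and 2.58 with hsa-miR-214-3p and 2.34 and 2.75 in the control. The hsa-miR-205-5p arrays were again the lowest, and the other groups overlapped. The change was −1.39 on the log2 scale (SE 0.21, 95% interval −1.91 to −0.87, limma adjusted p = 0.0144).

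NUP93 is an organizer of the inner ring, to which other ring and channel nucleoporins attach. Its level was 1.18 and 0.93 with hsa-miR-205-5p, 2.68 and 2.71 with hsa-miR-214-3p and 2.13 and 2.64 in the control. Here too the hsa-miR-205-5p arrays did not overlap with the rest, although the scrambled arrays had an SD of 0.36 (n = 2). The change was −1.33 (SE 0.23, 95% interval −1.90 to −0.76, limma adjusted p = 0.0189).

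NUP35 is a membrane-binding nucleoporin of the inner ring. Its level was 4.05 and 4.10 with hsa-miR-205-5p, 3.71 and 3.75 with hsa-miR-214-3p and 2.72 and 2.43 in the control, so that all 4 precursor arrays lay above both control arrays. The change with hsa-miR-205-5p was 1.50 (SE 0.17, 95% interval 1.06 to 1.93, limma adjusted p = 0.00924). A second, dimmer NUP35 probe for another transcript read 2.28 and 0.86, 1.60 and 1.56, and 1.20 and 1.00 in the same order of groups. Its hsa-miR-205-5p arrays enclosed the control values, and its change of 0.47 (95% interval −0.68 to 1.61) did not pass the test (limma adjusted p = 0.488).

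NDC1 is a transmembrane nucleoporin that anchors the pore and recruits aladin. Its level was 4.43 and 4.53 with hsa-miR-205-5p, 3.00 and 2.88 with hsa-miR-214-3p and 3.28 and 2.79 in the control. The hsa-miR-205-5p arrays stood above all others, and the hsa-miR-214-3p arrays lay within the range of the control. The change was 1.44 (SE 0.21, 95% interval 0.91 to 1.98, limma adjusted p = 0.0142). NDC1 and its partner AAAS thus lay on opposite sides of the control with hsa-miR-205-5p, as did NUP35 and NUP93 within the inner ring.

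**Figure D2:**
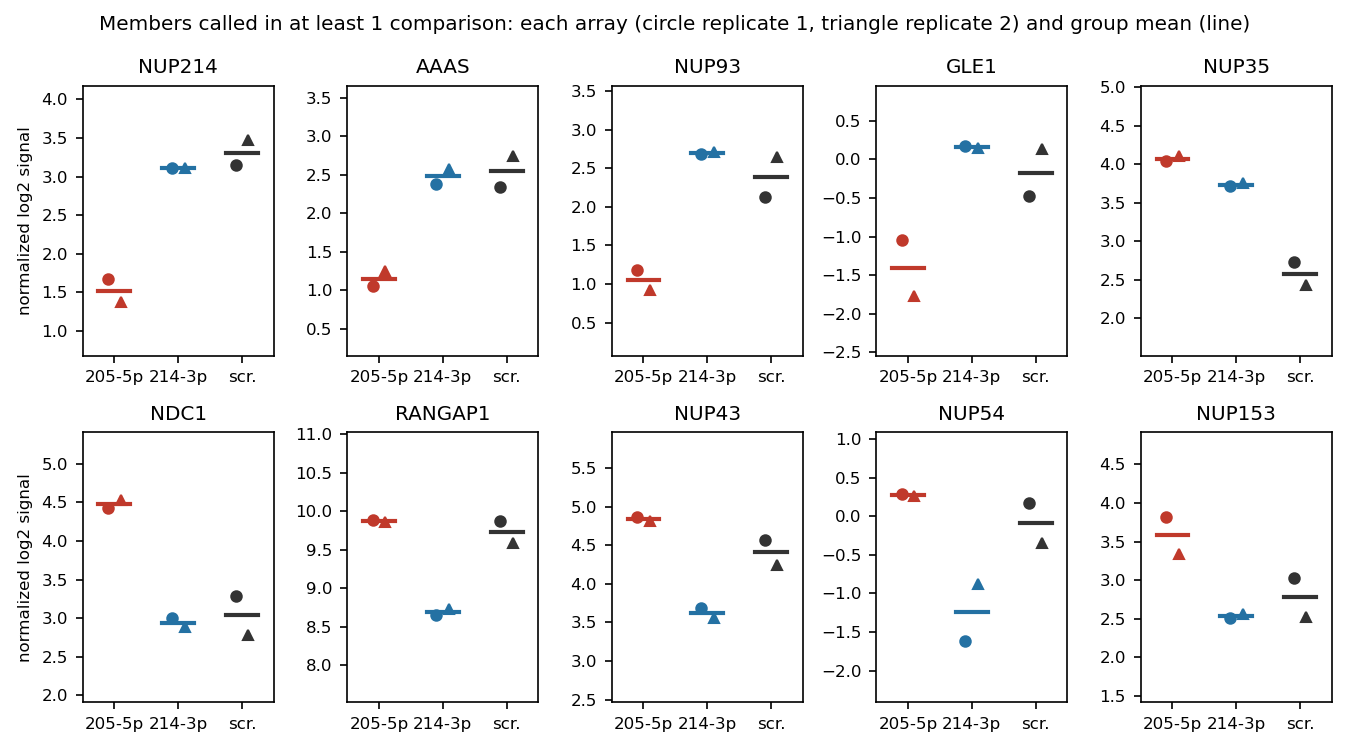
Normalized log2 signal (vertical axis) of members called in at least 1 comparison, with 1 point per array (circle replicate 1, triangle replicate 2) and a line for the mean of each group. The hsa-miR-205-5p arrays are lowest for NUP214, AAAS, NUP93 and GLE1 and highest for NDC1, and both precursor groups lie above the control for NUP35.

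Several members came close to the threshold with hsa-miR-205-5p. GLE1, which activates the RNA helicase that releases mRNA at the cytoplasmic face, read −1.05 and −1.77 against −0.47 and 0.13 in the control, a log2 fold change of −1.24 with a limma adjusted p of 0.0507. It was the only member whose brightest probe was not well above background everywhere, since 1 hsa-miR-205-5p array fell short. NUP160, a Y complex scaffold protein, was higher by 0.82 on the log2 scale (4.11 and 4.12 against 3.17 and 3.42, limma adjusted p = 0.0287), which passed the test but is under 2-fold. AHCTF1 (ELYS), which brings the Y complex to chromatin, had −0.84 (limma adjusted p = 0.0693). The inner ring scaffold NUP188 had −0.76 (limma adjusted p = 0.0605), and the membrane nucleoporin NUP210 had −0.80 (limma adjusted p = 0.0632). For all 3, both hsa-miR-205-5p arrays lay below both control arrays. The basket nucleoporin NUP153 was higher by 0.80 (limma adjusted p = 0.0837), with both hsa-miR-205-5p arrays above both control arrays. In this comparison 9 members lay wholly below and 12 wholly above the control, and over all genes 28.6% lay below and 36.6% above.

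With all 6 arrays, a limma unadjusted p under 0.05 with the 2-fold limit passed 6 of 36 members and 15.7% of all genes. That share was not counted with an array left out. The number of called members rested on the arrays in the fit. It was 2 without hsa-miR-205-5p replicate 1 and 2 without either hsa-miR-214-3p array, with NUP214 and NUP35 called each time, and it was 0 of 36 by limma without hsa-miR-205-5p replicate 2, where 7 passed at an unadjusted p under 0.05 with the 2-fold limit. Without scrambled replicate 1 or 2 it was 7. The share of all genes called moved alongside: it was 6.44% without hsa-miR-205-5p replicate 1, 0 of 11974 genes without replicate 2, 5.15% without either hsa-miR-214-3p array, and 20.6% and 11% without scrambled replicates 1 and 2. Scaling to the array median moved the median of all genes from 0.08 to −0.31 and called 7 members lower and 2 higher, and the share of lower calls over all genes went from 62.6% to 89.8% (82.3% with normexp background correction). NUP214, AAAS and NUP93 stayed below 0 and NUP35 and NDC1 above 0 in all of these settings.

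With the hsa-miR-214-3p precursor, 2 pore genes were called. NUP35 was called higher than in the scrambled control, by 2.23-fold, and RANGAP1, the activator of RAN's GTP hydrolysis, was called lower, by 2.05-fold. These 2 members were 5.56% of the 36, and over all genes the rule called 3.12% (lower 2.03%, higher 1.09%). Without the fold limit 2 members passed as well, and 3.3% of all genes. The median change of the members was −0.11 and that of all genes −0.01 on the log2 scale, and 23 of 36 members lay below 0. The 95% interval lay inside 2-fold in both directions for 24 members (66.7%), against 57.1% of all genes. This comparison and that of hsa-miR-205-5p use the same 2 control arrays, so their values stand side by side here and are not independent.

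The NUP35 levels given above were 3.71 and 3.75 against 2.72 and 2.43, with the groups well apart. The log2 fold change was 1.16 (SE 0.17, 95% interval 0.72 to 1.59, limma adjusted p = 0.0405). The second NUP35 probe had a change of 0.48 that did not pass (limma adjusted p = 0.576). RANGAP1 read 8.66 and 8.73 with hsa-miR-214-3p, 9.87 and 9.59 in the control and 9.88 and 9.85 with hsa-miR-205-5p. The hsa-miR-214-3p arrays were the lowest, and those of hsa-miR-205-5p lay beside the control. The change with hsa-miR-214-3p was −1.04 (SE 0.17, 95% interval −1.46 to −0.61, limma adjusted p = 0.0473). NUP54, a repeat nucleoporin of the central channel, had a change of −1.16 that did not pass the test (−1.61 and −0.88 against 0.17 and −0.34, 95% interval −1.93 to −0.39, limma adjusted p = 0.111). Its hsa-miR-214-3p arrays differed from each other by more than its control arrays did, and with normexp its change was −0.39 (limma adjusted p = 0.187).

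Most members by far were not called with hsa-miR-214-3p, and the side on which they lay is given as a description, beside 6105 of the 11974 genes below 0. Of the 8 Y complex genes 7 lay below 0, with a median of −0.29, and 6 had both arrays below both control arrays, where 30.7% of all genes did. None of the 8 was called by limma at adjusted p under 0.05, and 1, NUP43, passed at an unadjusted p under 0.05. NUP43, a beta-propeller protein of the Y complex, read 3.68 and 3.56 against 4.57 and 4.25 (−0.79, limma adjusted p = 0.0848). Of the 5 inner ring genes 1 lay below 0, and their median was 0.17. NUP35 was called higher, NUP93, NUP155 and NUP188 had 0.31, 0.17 and 0.13 and were not called, and the gene below 0 was NUP205. This inner ring scaffold read 4.79 and 4.96 against 5.90 and 5.74 (−0.95, limma adjusted p = 0.0919). NUP88, the partner of NUP214 on the cytoplasmic face, read 3.08 and 2.52 against 3.82 and 3.60 (−0.91, limma adjusted p = 0.186), and the channel nucleoporin NUP58 had −0.75 (limma adjusted p = 0.136). In each of these the groups did not overlap, yet the differences were not beyond the spread that limma estimated at the adjusted threshold. Over the members 14 lay wholly below and 7 wholly above the control, and over all genes 30.7% and 27.7% did.

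Both calls with hsa-miR-214-3p were near the threshold. Leaving out any array other than scrambled replicate 2 left 0 of 36 members called by limma, with 1 to 4 passing at an unadjusted p under 0.05 and 2-fold, and without scrambled replicate 2 both were called. Over all 11974 genes, too, 0 were called in each fit that called no member. Without scrambled replicate 2 the share was 9.61%, and 496 genes were lower and 655 higher, so that lower genes made up 43.1% of the calls. With median scaling RANGAP1 was called and NUP35 was not, and the share of lower calls over all genes was 86.3% in place of 64.97% (84.9% with normexp). NUP35 stayed above 0 and RANGAP1 and NUP54 below 0 throughout.

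Set directly against each other, the precursors differed in 9 of the 36 members (25%), where 20.5% of all genes were called (lower 11.3%, higher 9.18%). With hsa-miR-205-5p, NUP93, NUP214, GLE1 and AAAS were lower than with hsa-miR-214-3p. NDC1, NUP54, NUP43, RANGAP1 and NUP153 were higher. At any size of change 13 members passed, 36.1% against 33.9% of all genes. This comparison uses the same precursor arrays as those above and no control array, except in the shared estimate of spread.

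The lower members had log2 fold changes of −1.64 for NUP93, −1.59 for NUP214, −1.57 for GLE1 and −1.33 for AAAS, with limma adjusted p of 0.00753, 0.00584, 0.0198 and 0.0101. NDC1 was higher by 1.54 (limma adjusted p = 0.0076). Of these 5, NUP93, NUP214, AAAS and NDC1 were also called for hsa-miR-205-5p against the control and none of the 5 was called for hsa-miR-214-3p. The hsa-miR-214-3p arrays of NUP93 lay just above the control arrays and those of NUP214 just below. GLE1 read 0.18 and 0.14 on the hsa-miR-214-3p arrays, just above the higher control array. With normexp background correction the GLE1 difference shrank to −0.38 and was no longer called (limma adjusted p = 0.101), and that of AAAS was −0.99, just under 2-fold.

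For NUP54, NUP43 and RANGAP1 the hsa-miR-214-3p arrays lay below those of both other groups. NUP54 read 0.29 and 0.26 with hsa-miR-205-5p, a difference of 1.52 (limma adjusted p = 0.0194) that became 0.54 with normexp, under 2-fold and not called (limma adjusted p = 0.0439). NUP43 read 4.87 and 4.82 with hsa-miR-205-5p, a difference of 1.22 (limma adjusted p = 0.00888). RANGAP1 differed by 1.18 (limma adjusted p = 0.00838), and by 0.92 with quantile normalization, 0.94 in the deposited table and 0.95 with median scaling, each under 2-fold. With median scaling the NUP43 difference, too, was just under 2-fold. NUP153, the nuclear basket nucleoporin that docks the basket to the pore, read 3.81 and 3.34 with hsa-miR-205-5p and 2.51 and 2.56 with hsa-miR-214-3p, a difference of 1.04 (limma adjusted p = 0.0323), and 3.03 and 2.52 in the control. The hsa-miR-205-5p arrays were above the control for this gene and the hsa-miR-214-3p arrays overlapped with it. With normexp the NUP153 difference was 0.87, and with median scaling 0.82 (limma adjusted p = 0.0829), both under 2-fold.

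Under 2-fold, NUP160 (0.77, limma adjusted p = 0.0233) and NUP205 (0.81, limma adjusted p = 0.0439) were higher with hsa-miR-205-5p than with hsa-miR-214-3p. NUP188 (−0.89, limma adjusted p = 0.0302) and NUP210 (−0.94, limma adjusted p = 0.0313) were lower. NUP35, called higher for each precursor against the control, differed between the precursors by 0.34 (95% interval −0.09 to 0.77, limma adjusted p = 0.177), an interval that includes 0 and stays under 2-fold. The count of 9 fell to 0 of 36 by limma without hsa-miR-214-3p replicate 1 or replicate 2, with 10 and 9 passing at an unadjusted p and 2-fold, and to 6 without either hsa-miR-205-5p array. The share of all genes called fell from 20.5% to 5.01% and 2.71% without hsa-miR-214-3p replicates 1 and 2, and to 14.2% and 12.8% without hsa-miR-205-5p replicates 1 and 2. With median scaling 8 were called, 6 lower and 2 higher, and the share of lower calls over all genes went from 55.2% to 73.8%. With all 6 arrays, a limma unadjusted p under 0.05 with the 2-fold limit passed 9 members and 23.1% of all genes.

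None of the 4 carriers was called in any comparison, on any of their tested probes. KPNA2, an importin alpha that binds the classical import signal, read 8.95 and 9.05 with hsa-miR-205-5p, 9.25 and 9.62 with hsa-miR-214-3p and 9.17 and 8.94 in the control. Its change was −0.05 (95% interval −0.55 to 0.44) for hsa-miR-205-5p and 0.38 (−0.12 to 0.87) for hsa-miR-214-3p. KPNB1, the importin beta that carries it, had 0.46 (−0.01 to 0.94) and 0.15 (−0.32 to 0.62). IPO5, an importin for ribosomal proteins and histones, had 0.04 (−0.35 to 0.43) and 0.19 (−0.20 to 0.58). On these probes, the brightest of each gene, the intervals lay within 2-fold. Second probes of the same transcripts were less clear: that of KPNB1 had −0.13 (−0.78 to 0.52) and −0.43 (−1.08 to 0.22), opposite in sign to the brighter probe, and that of IPO5 had −0.46 (−1.50 to 0.58) and 0.41 (−0.64 to 1.45). In the direct comparison the second IPO5 probe had −0.86 (−1.90 to 0.18), beside −0.15 on the brighter, and its interval too reached past 2-fold. XPO1, the main exporter of proteins with a leucine-rich signal, had 0.16 (−0.90 to 1.22) and 0.09 (−0.97 to 1.14), and since its control arrays read −0.39 and 0.79 its interval reaches past a 2-fold rise. KPNA2 belongs to a family of related genes, and what else its probe reads was not tested.

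Further members were called with neither precursor against the control, which does not show that each stayed level. TPR, the filament protein of the basket, had 0.08 (−0.30 to 0.46) for hsa-miR-205-5p and −0.05 (−0.43 to 0.33) for hsa-miR-214-3p. The membrane nucleoporin POM121 had 0.04 (−0.34 to 0.42) and −0.08 (−0.45 to 0.30), although its sequence is nearly that of POM121C and the probe may not separate them. RCC1, the exchange factor for RAN, had −0.03 (−0.52 to 0.46) and 0.25 (−0.24 to 0.74). All of these intervals lay within 2-fold. In the Y complex NUP107, NUP85, NUP37 and SEH1L had −0.06, −0.07, 0.00 and −0.04 for hsa-miR-205-5p and −0.28, −0.20, −0.43 and −0.29 for hsa-miR-214-3p. NUP133, which closes the stem of the Y, had 0.31 and −0.13. The inner ring scaffold NUP155 had 0.23 and 0.17, and NUP62, the best known channel nucleoporin, 0.28 and −0.06. RAE1, an mRNA export partner of NUP98, had 0.52 (limma adjusted p = 0.0953) and 0.26. RANBP2, the SUMO ligase of the cytoplasmic filaments, had 0.17 and −0.22, and reads of its probe may include the closely related RGPD genes. NUP50, a basket protein that helps importins release cargo, had −0.03 with an interval of −1.39 to 1.32, because its hsa-miR-214-3p arrays read 2.31 and 0.70. A second NUP50 probe of the same transcript was steadier, with −0.30 (−0.85 to 0.24) for hsa-miR-205-5p and 0.15 (−0.40 to 0.69) for hsa-miR-214-3p, both within 2-fold. The second probe of NUP133 had −0.46 and −0.97 and that of SEH1L 0.23 and 0.02, and neither passed the test.

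Of the 36 members 10 had more than 1 tested probe, and for RAN and NUP98 the probes differed widely. The brighter RAN probe read 9.79 and 10.02 with hsa-miR-205-5p, 9.57 and 9.74 with hsa-miR-214-3p and 10.15 and 9.54 in the control, a change of 0.06 (95% interval −0.57 to 0.69) and −0.19 (−0.82 to 0.44). The dimmer RAN probe, for the same transcript accession, read 3.98 and 3.97, 6.83 and 6.88, and 5.58 and 7.16. On the dimmer probe the hsa-miR-205-5p arrays were the lowest, scrambled replicate 1 lay between them and the hsa-miR-214-3p arrays, and scrambled replicate 2 lay highest. Its change with hsa-miR-205-5p was −2.39 (95% interval −3.65 to −1.14, limma adjusted p = 0.0305), and against hsa-miR-214-3p −2.87 (limma adjusted p = 0.0131). RAN has processed copies in the genome, and what else either probe reads was not tested.

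NUP98 is a repeat nucleoporin whose gene also encodes the Y complex protein NUP96. Its brighter probe read 3.95 and 3.94 with hsa-miR-205-5p, 3.29 and 3.45 with hsa-miR-214-3p and 3.69 and 3.41 in the control, a change of 0.39 (limma adjusted p = 0.166) and −0.18. Its dimmer probe, for another transcript, read 1.05 and 1.25, 3.64 and 3.60, and 2.63 and 4.24. That is the same layout as on the dimmer RAN probe, with the hsa-miR-205-5p arrays lowest, scrambled replicate 1 between and scrambled replicate 2 highest. The change with hsa-miR-205-5p was −2.28 (SE 0.51, limma adjusted p = 0.0357). The 2 probes of NUP43 also parted in the direct comparison, where the dimmer one had −0.06 (95% interval −1.16 to 1.04) beside 1.22 on the brighter. NUP62 had 0.34 on its brighter and −0.71 on its dimmer probe there, the latter with a limma adjusted p of 0.024. Changes on the probes of a gene lay over 2-fold apart for 3 of the 10 members with hsa-miR-205-5p, 0 of 10 with hsa-miR-214-3p and 4 of 10 in the direct comparison. Among all 2680 genes with several tested probes these shares were 23.4%, 7.57% and 30.9%. When the mean of the probes stood for a gene, RAN and GLE1 were called lower with hsa-miR-205-5p. NUP35 was then no longer called with either precursor. In the direct comparison RAN was then called lower and NUP43 was no longer called.

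**Figure D3:**
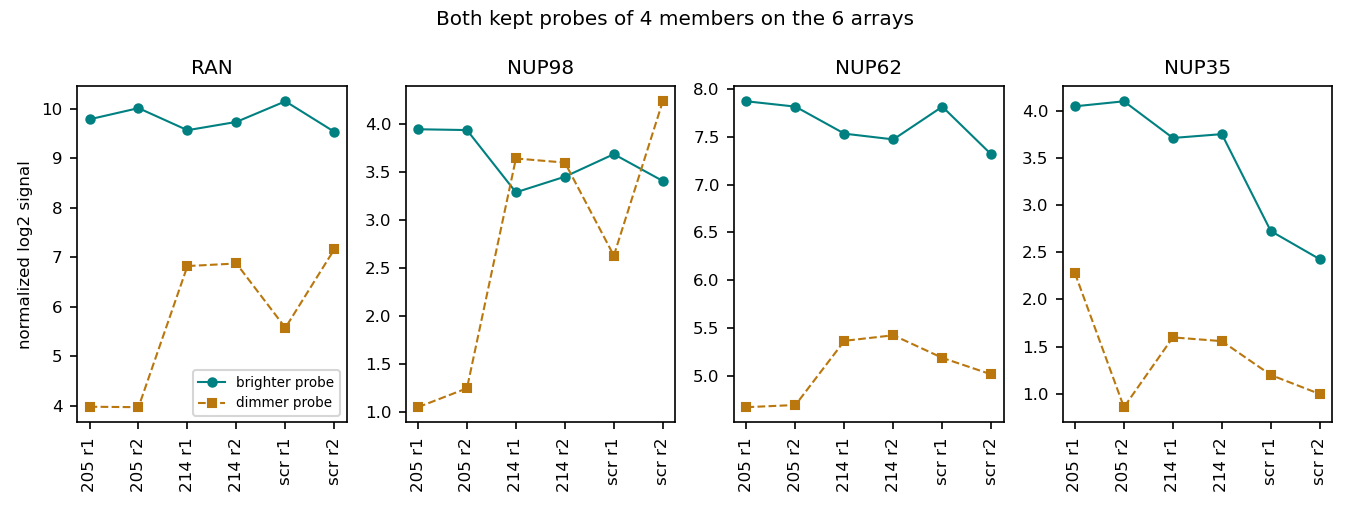
Normalized log2 signal (vertical axis) of both tested probes of RAN, NUP98, NUP62 and NUP35 on the 6 arrays (horizontal axis, replicates r1 and r2 of each group); circles are the brighter and squares the dimmer probe, and the lines only join points of 1 probe. On the dimmer RAN and NUP98 probes the hsa-miR-205-5p arrays are lowest, near 4 for RAN and near 1 for NUP98, while the brighter probes of these 2 genes lie between 9.54 and 10.15 and between 3.29 and 3.95.

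A further 52 genes of nuclear transport were listed beside the members, and 45 of them were tested. With hsa-miR-205-5p 7 of the 45 were called lower and 1 higher (17.8%, against 12.8% of all genes), 29 lay below 0 and the median log2 fold change was −0.18. With hsa-miR-214-3p 1 was called lower (2.22%, against 3.12%), and the median was 0.08. In the direct comparison 8 were lower and 1 higher (20%, against 20.5%).

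With hsa-miR-205-5p, 3 of 20 mRNA export factors and 4 of 23 other transport receptors and Ran factors were called lower, where 7.98% of all genes were. NXF1, the general mRNA export receptor, read −0.14 and −0.18 with hsa-miR-205-5p, 3.58 and 3.48 with hsa-miR-214-3p and 2.44 and 3.09 in the control. Its change was −2.92 (SE 0.25, limma adjusted p = 0.00799), with the hsa-miR-205-5p arrays far below the rest. SNUPN, which imports spliceosomal snRNPs, had signals near background on the 2 hsa-miR-205-5p arrays, so only a bound can be given. Taking each array's dimmest detected signal in place of an unmeasured one, SNUPN was lower there by 4.55-fold or more. Brighter signals on these arrays may also go undetected, so this bound is not strict. The SNUPN probe passed the filter on dim probes through the other groups. The limma adjusted p of 0.00799 belongs to the measured signals (−2.78 and −3.19 against 0.41 and 0.74) and not to this bound. THOC5, a subunit of the THO complex, had −1.96 (limma adjusted p = 0.00836), and TNPO3, the importin of SR proteins, had −2.03 (limma adjusted p = 0.0175). NUTF2, which returns RAN to the nucleus, had −1.77 (limma adjusted p = 0.0304), and IPO4, an importin for histones, had −1.03 (limma adjusted p = 0.0151). POLDIP3, an mRNA export adaptor, had −2.11 on its brighter probe (limma adjusted p = 0.00924) and −0.62 on its dimmer (limma adjusted p = 0.0901). The control arrays read 2.54 and 3.51 for TNPO3, 3.58 and 4.70 for NUTF2 and 3.42 and 4.07 for the brighter POLDIP3 probe. For TNPO3 and that POLDIP3 probe scrambled replicate 1 lay between the precursor groups and scrambled replicate 2 highest. THOC7, another THO subunit, was higher by 1.05 (limma adjusted p = 0.0144). Subunits of the same complex therefore lay on opposite sides of the control here as well.

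With hsa-miR-214-3p the single call in this group was KPNA6, an importin alpha. It read 2.77 and 2.68 with hsa-miR-214-3p, 3.84 and 3.62 in the control and 4.55 and 4.46 with hsa-miR-205-5p. The 3 groups did not overlap, with hsa-miR-214-3p lowest and hsa-miR-205-5p highest. It was 2.01-fold lower than the control with hsa-miR-214-3p (limma adjusted p = 0.048), and its log2 fold change was 0.78 for hsa-miR-205-5p (limma adjusted p = 0.0317), and the direct difference was 1.79 (limma adjusted p = 0.00401). In the same order a dimmer KPNA6 probe had log2 fold changes of −0.86 (limma adjusted p = 0.0777), 0.27 (limma adjusted p = 0.338) and 1.12 (limma adjusted p = 0.0113). SEC13, a Y complex protein shared with vesicle coats, had 0.59 on its brighter probe and −1.30 (limma adjusted p = 0.0151) on a dimmer probe for another transcript with hsa-miR-205-5p. In RNA from a whole culture, less of a transcript per cell and fewer cells that carry it cannot be told apart, for any gene above.

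**Figure D4:**
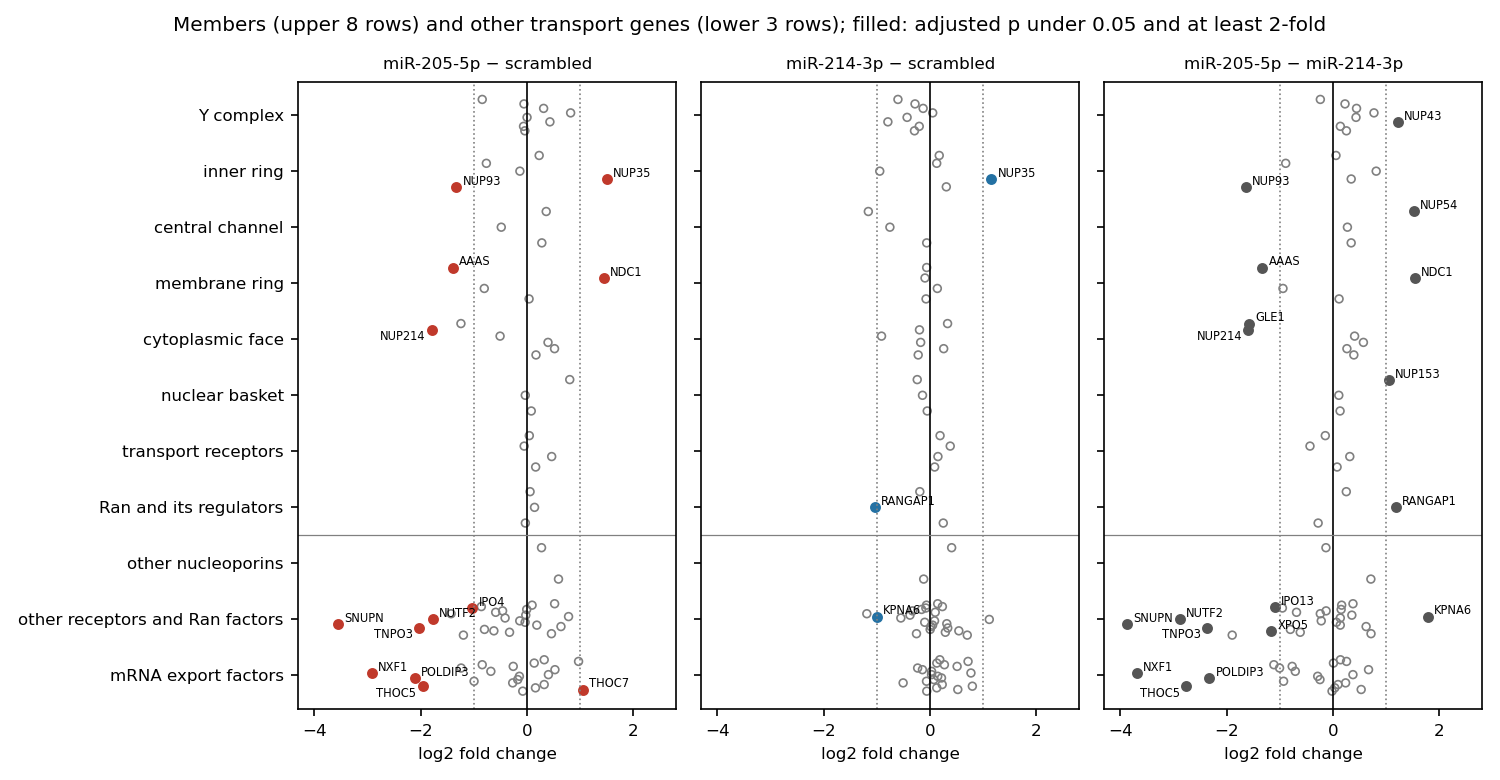
Log2 fold change (horizontal axis) of each member by role (upper 8 rows) and of the other transport genes (lower 3 rows) in the 3 comparisons, with 1 point per gene; filled, named points are called at adjusted p under 0.05 and at least 2-fold. With hsa-miR-205-5p the lowest values are those of SNUPN (plotted at its measured mean, near background), NXF1 and POLDIP3 among the other transport genes, below that of NUP214 among the members.

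Promoter sequence from RefSeq, 250 bases before to 50 bases after a start, was at hand for 32 of the 36 members (42 promoters) and for 35116 promoters in all, with GRCh38.p14 coordinates. The 8 short motifs were searched on both strands, after the array values had been seen, and their matches are a description only. The ETS letters CCGGAAG were in 28.6% of the member promoters and 10.3% of all promoters. The YY1 letters ATGGCGGC were in 11.9% and 3%, the NRF1 palindrome in 7.14% and 1.24%, the CRE letters TGACGTCA in 4.76% and 1.85%, and the E-box CACGTG in 11.9% and 7.26%. CCAAT was in 38.1% and 34.6%, the GC box GGGCGG in 47.6% and 45%, and TATAAA in 2.38% and 11.5%. Member promoters were richer in G and C, with a median of 63.7% against 58.7%. Windows of 30 bases around the ETS letters are shown for NUP214, NUP35 and NUP54, which are the members with a match that were called in a comparison, with the matched letters in capitals. NUP54 had a second match on the other strand, not shown.
NUP214, chr9:131125496-131125525, plus strand: gggagcggcggCCGGAAGaacgcgcggctt
NUP35, chr2:183124335-183124364, plus strand: atagcgcaggtCCGGAAGttacgcaacccc
NUP54, chr4:76148550-76148579, minus strand: tgtgaagcccaCCGGAAGtgagctggctgg
The matched letters lay 79, 97 and 171 bases before the start.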

How the data were processed

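The 6 RNA samples were labeled with Cy3 and hybridized to Agilent one-color arrays, all on 1 slide and read in the same scan, so no slide or scan batch could be tested. The authors deposited the output of Agilent Feature Extraction (version 11.0 per the labels). The deposited processed signal is a linear intensity, corrected for background within the array and not scaled between arrays. A deposited table of log2 values (50739 rows) has the same sorted values in each column (median 3.49), and its columns correlated at 0.997 to 1.00 with log2 of the processed signal. It is thus on a log2 scale, in the direction of the signal and not centred by probe, and it was used as an alternative.

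Control spots were left out, as were outliers among the other spots (245 to 463 per array). Spots of a probe were averaged, and the 75th percentile of each array (35.1 to 58.0 before log2) was then subtracted as log2. A probe was tested when both arrays of any 1 group showed it well above background and all 6 arrays gave a value, which held for 18464 of 50599 probes. Gene symbols came from RefSeq accessions (GRCh38.p14, for names only, since the array design used another build), and 30275 probes were matched to a symbol. lmFit and eBayes of limma 3.58.1 were run in R 4.3.3, with the data.table package (version 1.17.8) and no covariates. This left 3 residual and 2.47 prior degrees of freedom, so the number of arrays limits the precision. Plots were drawn with matplotlib 3.10.9. In a simulation of hsa-miR-205-5p against the control over 11974 genes, 75 of the 100 genes set to change 3-fold were called. So were 94 of the 100 set to change 6-fold, and 6 others. Noise was drawn independently for each array at the spread limma estimated, with all other genes unchanged. Arrays that differ as scrambled replicate 2 does were not simulated, so these counts need not hold for the real arrays.

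The members, the lists of other transport genes and the markers were chosen with earlier results of these data known. Named with full values were the called members of each comparison, or the 3 with the largest change where fewer than 3 were called. Other members are given by role, and further genes were chosen after their values were seen. The alternatives were normexp (offset 50, on the median signal, since the files used here hold no mean signal), quantile normalization, median scaling, the percentile over detected probes, the deposited table, other filters, a fit to 4 arrays, a block for the replicate number, trend and robust spread, other call rules, the methods' t-test, the mean of probes, and leaving out each array.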

Additional observations from a re-analysis of the deposited data

How the results depend on the processing

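The called members numbered 5 for hsa-miR-205-5p, 2 for hsa-miR-214-3p and 9 in the direct comparison. For hsa-miR-205-5p the count became 9 with median scaling, 1 with no filter on dim probes and 2 with only the 4 arrays compared. For hsa-miR-214-3p it became 1 with normexp, median scaling, the deposited table or the mean of probes. By limma it became 0 with no filter, with only the 4 arrays or with the replicate number as a block. Each of these had 3 members at an unadjusted p and 2-fold, limits that 6.8% of all genes passed in the fit described above. For the direct comparison the count became 5 with normexp and 3 with no filter. The methods' t-test after Benjamini-Hochberg adjustment called 0 members for hsa-miR-205-5p and 0 for hsa-miR-214-3p. Its unadjusted p with the 2-fold limit called 5 and 2, beside 9.52% and 4.58% of all genes. Leaving out each array in turn gave 0 to 7, 0 to 2 and 0 to 9 members, with the lone array of a group assumed to vary like the others. The other alternatives stayed within 1.5 times the counts given. Over all genes, hsa-miR-205-5p called 956 lower and 572 higher, and 405 and 212 with only its 4 arrays, 619 and 133 with normexp, 1876 and 212 with median scaling, 206 and 114 with no filter and none with the adjusted t-test. For hsa-miR-214-3p the 243 lower and 131 higher genes became 208 and 37 with normexp and none with no filter, 4 arrays, the block or the adjusted t-test, and in the direct comparison 1352 and 1099 became 652 and 415 with normexp, 726 and 522 with no filter and 944 and 660 with the adjusted t-test.

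Arrays with the same replicate number were not paired by the labels, and their deviations from the group means correlated at 0.109, 0.00819 and −0.0514, so the numbers were taken as names. The replicate block left 5 and 9 members called for hsa-miR-205-5p and the direct comparison. Over 17 named results and 356 recomputed values the direction never reversed, 262 kept their side of the threshold, 93 no longer passed it and 1 newly passed it. GLE1 had no value with the filter that needs all 6 arrays above background. The cause of these shifts was not tested. The 95% intervals of the members had a median half-width of 0.53 on the log2 scale.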
